A study of Mus musculus with 24 samples.

Results

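Ccn1, Ccn2 and 7 further genes of the YAP pathway were followed in the kidneys of mice after myocardial infarction (MI). The 9 genes were named as a set, after the level of Ccn1 in these kidneys was known to be low at 5d post-MI, and each was found in the count table by its Ensembl identifier (Ccn1 is also called Cyr61, and Ccn2 is also called Ctgf). They are 9 of the 56941 genes listed and 9 of the 12780 genes that passed the filter on low counts, so that none of them was lost to the filter. Because Ccn1 was chosen by its level at 5d post-MI, the values of the 9 genes at 5d post-MI against sham and at 28d against 5d post-MI are given as a description. Only the comparison of 28d post-MI with sham is tested for them, and it uses the same sham kidneys.

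The mice were wild-type male C57BL/6J (B6) mice, young adults, in which the left anterior descending coronary artery (LAD) was tied permanently. Sham mice had the surgery without ligation. The labels list 24 kidneys, and the counts of 22 could be assigned to their sample, 8 sham, 8 at 5d and 6 at 28d post-MI, each from a different mouse. Sham kidneys, all taken 5d after the operation, were the controls for both times, so that the effect of MI at 28d and that of the longer time and higher age cannot be told apart.

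RNA of the whole organ was read by Massive Analysis of cDNA Ends (MACE), which sequences the 3′ end of each polyadenylated mRNA and counts molecules by unique molecular identifiers. Total counts were between 2280618 and 3786275 per kidney, and the mean log2 total differed from sham by −0.06 at 5d and by −0.16 at 28d post-MI (exact permutation test, two-sided, p = 0.62 and p = 0.2). Levels are given as CPM, the counts of a gene scaled to a library of 1000000 counts, which are relative within a gene and were not set against each other between genes. Fewer cells of a type and less RNA per cell cannot be told apart in RNA of a whole organ. All 5 markers of the proximal tubule, a kidney segment, were counted in all 22 kidneys. In 3 kidneys (sham replicates 2 and 6, and 5d post-MI replicate 5) the summed level of 5 adrenal cortex markers was 966, 719 and 84.0 CPM, and it was at most 4.27 CPM in the other 19 kidneys.

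YAP (gene Yap1) and its paralogue TAZ (gene Wwtr1) are transcriptional coactivators that have no DNA-binding domain of their own and reach promoters and enhancers through TEAD factors such as Tead1. The Hippo kinases LATS1 and LATS2 phosphorylate YAP and TAZ, which keeps them in the cytoplasm. The activity of YAP and TAZ is therefore set largely by phosphorylation and localisation, which RNA levels do not show. Ccn1 and Ccn2, secreted matricellular proteins that bind integrins, are the target genes most often read as the output of the pathway. In the kidney, CCN2 is known for its part in fibrosis downstream of TGF-β, and CCN1 is induced early by ischaemia. Amotl1 and Amotl2 encode angiomotin family proteins, which hold YAP at cell junctions, and Ajuba encodes a LIM protein that restrains LATS kinases. Amotl1, Amotl2, Ajuba and Lats2 are themselves known among YAP and TAZ target genes.

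RefSeq promoters (build GRCm38.p6, 250 bases before to 50 after a start of transcription) were at hand for 7 of the 9 genes, Ccn1, Amotl1, Amotl2, Ajuba, Lats2, Yap1 and Wwtr1. They were searched on both strands for the hexamer GGAATG, the core that TEAD factors bind, for TGANTCA, the AP-1 site of Fos and Jun proteins, for TGACGTCA, the cyclic AMP response element, and for the CArG box of serum response factor. None of these motifs overlaps another one in the promoters of the 7 genes. The TEAD hexamer was present in the promoters of 6 of the 7 genes, all but Amotl1, and in 14.7% of the 32851 promoters of all genes. The other 3 motifs were present in none of the 7. They were in 7.81% (AP-1), 1.79% (cyclic AMP response element) and 1.63% (CArG box) of all promoters. A match describes the sequence and is no evidence of binding. The 250 bases before the start of Ccn1 are shown because Ccn1 is the gene whose level differed most, with the TEAD hexamer, here on the minus strand relative to the gene and ending 97 bases before the start, in capitals (chr3:145649986-145650235, minus strand of the chromosome).
Ccn1: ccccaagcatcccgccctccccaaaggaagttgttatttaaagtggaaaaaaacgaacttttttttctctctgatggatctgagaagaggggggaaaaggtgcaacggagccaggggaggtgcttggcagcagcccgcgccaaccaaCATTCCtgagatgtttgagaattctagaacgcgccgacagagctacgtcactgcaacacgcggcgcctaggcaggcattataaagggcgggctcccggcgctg

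The hexamers of the other 5 genes follow with 10 bases on each side, in capitals, because they show the same core in other promoters of the set. They are written along the strand of the gene. Amotl2 has it at chr9:102717729-102717754, 59 bases before the start, and Ajuba at 2 places, chr14:54577832-54577857 and chr14:54577810-54577835. Yap1 has it at chr9:8004722-8004747, 135 bases before the start, and Lats2 at chr14:57746104-57746129, just after the start. Wwtr1 has 2 listed starts that share the hexamer at chr3:57576031-57576056.
Amotl2: gaaactctcaCATTCCtggcatagca
Ajuba, distal: ttgatggataCATTCCacagtgcccc
Ajuba, proximal: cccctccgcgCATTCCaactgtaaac
Lats2: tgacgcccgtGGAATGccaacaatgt
Yap1: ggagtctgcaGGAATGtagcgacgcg
Wwtr1: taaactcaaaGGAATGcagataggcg

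Of the pathway's outputs, Ccn1 was lower at 5d post-MI than in sham kidneys and than at 28d post-MI, while the levels of Ccn2 overlapped in all 3 groups. Ccn1 (ENSMUSG00000028195, chromosome 3, 145646976 to 145649981 in GRCm38, minus strand) had levels of 199, 118, 184, 170, 234, 208, 209 and 168 CPM in sham replicates 1 to 8, a mean of 186 ± 35.2 (SD, n = 8). At 5d post-MI, replicates 1, 2, 3, 5, 6, 7, 8 and 9 had 124, 42.7, 44.5, 114, 97.5, 77.3, 70.7 and 99.9 CPM, a mean of 83.7 ± 30.2 (SD, n = 8). At 28d post-MI, replicates 1, 2, 3, 4, 6 and 7 had 275, 255, 205, 338, 173 and 263 CPM, a mean of 252 ± 57.5 (SD, n = 6). The order of the levels was thus 5d post-MI, sham and 28d post-MI. At 5d post-MI 7 of 8 kidneys lay below every sham kidney, and only replicate 1 reached the range of sham, through the low sham replicate 2. At 28d post-MI 4 of 6 kidneys lay above every sham kidney, and all 6 lay above every kidney at 5d post-MI.

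On the log2 scale Ccn1 was 1.16 lower at 5d post-MI than in sham kidneys, with a fitted difference of −1.16 (SE 0.21). It was 1.59 (SE 0.22) higher at 28d than at 5d post-MI. The difference between 28d post-MI and sham was 0.43 (SE 0.21) and did not pass the test (edgeR, adjusted p = 0.583). That adjusted p was between 0.416 and 0.796 over 34 alternative fits, with fold changes of 0.33 to 0.54.

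**Figure D1:**
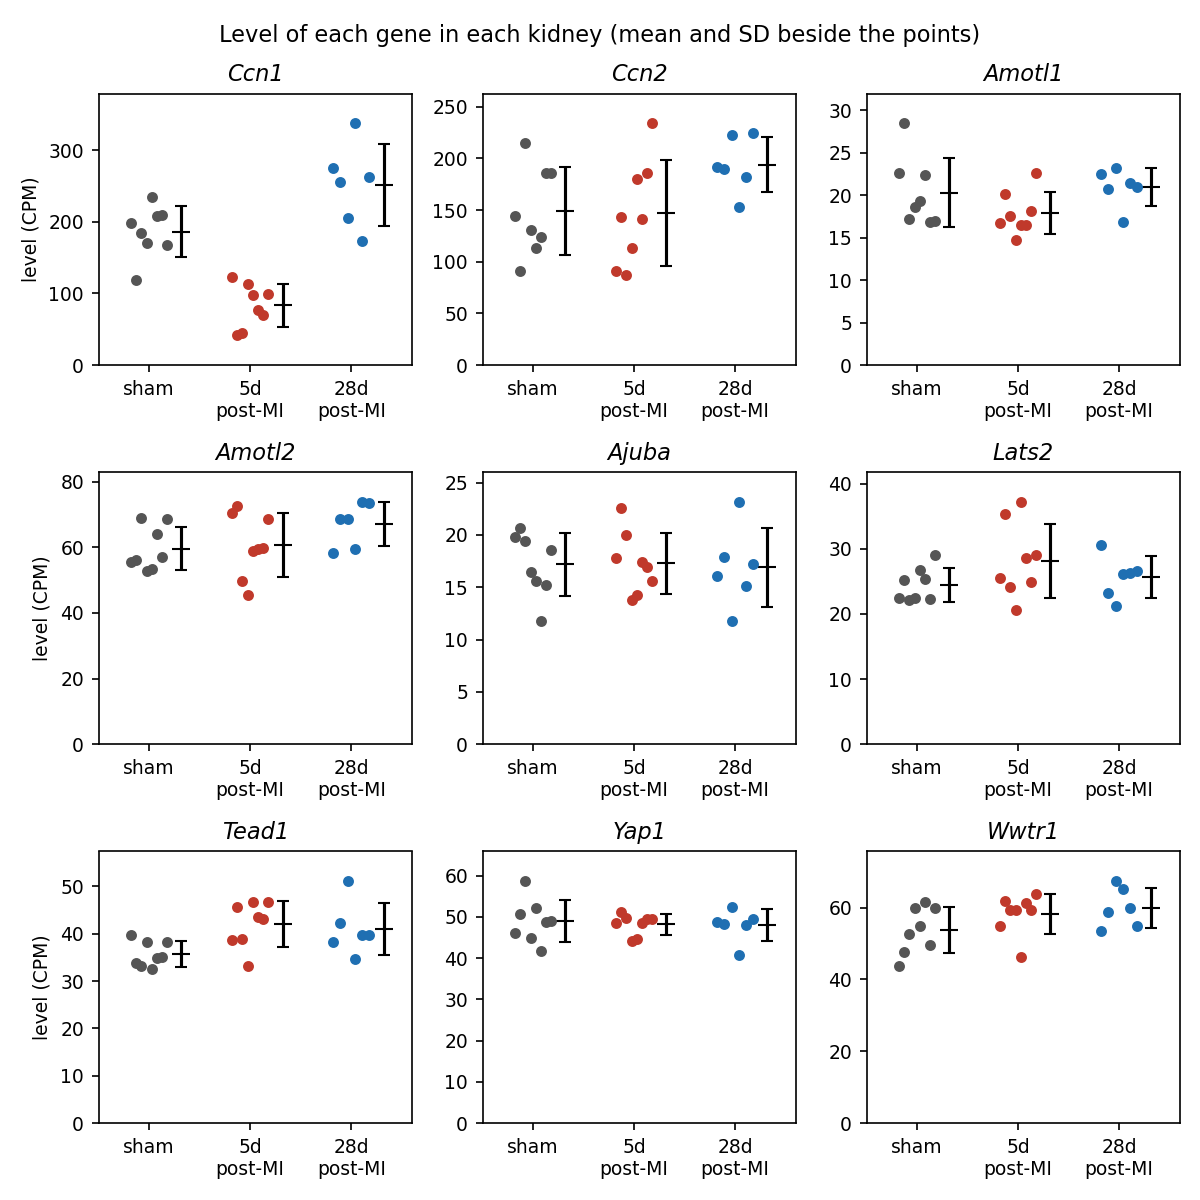
Level (CPM) of each of the 9 genes in each kidney, with a point per kidney in replicate order and the mean ± SD beside the points, for 8 sham kidneys, 8 at 5d and 6 at 28d post-MI. For Ccn1 the 5d post-MI kidneys sit at 42.7 to 124 CPM, below the 28d post-MI kidneys at 173 to 338 CPM, while the 3 groups overlap for each of the other 8 genes.

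Ccn2 (ENSMUSG00000019997, chromosome 10, 24595442 to 24598683, plus strand) differed widely between kidneys of a group. It had 145, 90.9, 214, 131, 113, 124, 186 and 186 CPM in the sham replicates 1 to 8, a mean of 149 ± 42.4 (SD, n = 8). At 5d post-MI, the replicates in the order given above had 90.7, 144, 87.6, 114, 180, 141, 186 and 235 CPM, a mean of 147 ± 50.9 (SD, n = 8). At 28d post-MI they had 192, 190, 222, 153, 182 and 224 CPM, a mean of 194 ± 26.7 (SD, n = 6). The sham and 5d post-MI kidneys covered nearly the same range, with 1 kidney at 5d post-MI above and 2 below every sham kidney. All 6 kidneys at 28d post-MI lay above the sham mean, and 2 of them above every sham kidney. The fitted log2 difference was −0.02 (SE 0.20) at 5d post-MI against sham and 0.40 (SE 0.22) at 28d against 5d post-MI. At 28d post-MI against sham it was 0.38 (SE 0.22), which did not pass the test (adjusted p = 0.656). Part of Ccn2, from its start to base 24597108, lies across from the noncoding gene Gm15270 on the opposite strand, and whether the counting used strand is not given in the sources used here.

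The angiomotin genes, which encode junction proteins that bind YAP, stayed within a narrow range. Amotl1 was lowest at 16.8 CPM, with a median of 18.96 and a maximum of 28.6 CPM in sham kidneys. At 5d post-MI its range was 14.7 to 22.6 CPM with a median of 17.1, and at 28d post-MI it was 16.8 to 23.2 CPM with a median of 21.2. The 3 groups overlapped, although 4 of 8 kidneys at 5d post-MI lay below every sham kidney. The fitted log2 difference of Amotl1 was −0.17 (SE 0.11) at 5d and 0.05 (SE 0.12) at 28d post-MI against sham, the latter with an adjusted p of 0.953.

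Amotl2 ranged from 52.9 to 69.0 CPM in sham kidneys (median 56.5), from 45.5 to 72.5 at 5d (median 59.6) and from 58.3 to 73.9 at 28d post-MI (median 68.7). The groups overlapped, with 2 kidneys at 5d post-MI above and 2 below every sham kidney. Its log2 difference was 0.03 (SE 0.08) at 5d and 0.18 (SE 0.09) at 28d post-MI against sham, the latter with an adjusted p of 0.592. Amotl1 and Amotl2 both lie on chromosome 9, at 14541966 to 14645056 on the minus strand and 102716672 to 102733418 on the plus strand.

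Ajuba and Lats2, which act on the kinase step, gave small differences. Ajuba (chromosome 14, 54567472 to 54577558, minus strand) had means of 17.2 ± 2.997 CPM in sham kidneys, 17.3 ± 2.91 at 5d and 16.9 ± 3.76 at 28d post-MI (SD, n = 8, 8 and 6). Its counts were the lowest of the set, between 29 and 74 per kidney, and the log2 differences were 0.01 and −0.02 at 5d and 28d post-MI against sham (SE 0.12 and 0.14), the latter with an adjusted p of 0.991.

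Lats2 (chromosome 14, 57689662 to 57758388, minus strand) ranged from 22.1 to 29.1 CPM in sham kidneys, from 20.6 to 37.3 CPM at 5d and from 21.1 to 30.6 CPM at 28d post-MI. The means were 24.5 ± 2.59, 28.2 ± 5.69 and 25.7 ± 3.22 CPM (SD, n = 8, 8 and 6). At 5d post-MI 2 kidneys, replicates 2 and 6 with 35.4 and 37.3 CPM, lay above every sham kidney, and the others were spread over the sham range or below it. The log2 difference was 0.20 (SE 0.10) at 5d and 0.07 (SE 0.11) at 28d post-MI, the latter with an adjusted p of 0.919. With the summed red blood cell markers as a covariate the value at 5d post-MI was −0.02. That sum was 4968 to 19089 CPM at 5d post-MI and 2200 to 4124 CPM in sham kidneys. Covariate and group can therefore hardly be told apart in that fit. Gm49361, a protein-coding model on the same strand, spans the 3′ end of Lats2 in GENCODE M21, so that reads could be shared between them and the counts of Lats2 are uncertain.

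Of the transcription factors, Tead1 had a higher mean at both times after MI but did not pass the test at 28d post-MI, and Yap1 was the steadiest of the 9 genes. Tead1 (chromosome 7, 112679318 to 112906807, plus strand) had 39.7, 33.8, 33.2, 38.3, 32.5, 34.9, 35.0 and 38.3 CPM in sham replicates 1 to 8. At 5d post-MI it had 38.7, 45.7, 38.9, 33.2, 46.8, 43.6, 43.2 and 46.7 CPM, and at 28d post-MI 38.2, 42.3, 51.2, 34.8, 39.7 and 39.8 CPM. The highest sham kidney was exceeded by 5 of 8 kidneys at 5d and by 4 of 6 at 28d post-MI, and the ranges of the groups overlapped. The means were 35.7 ± 2.68, 42.1 ± 4.79 and 41.0 ± 5.58 CPM (SD, n = 8, 8 and 6).

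Tead1 differed from sham by 0.23 (SE 0.08) on the log2 scale at 5d post-MI. At 28d post-MI it differed by 0.19 (SE 0.09), with an unadjusted p of 0.0376 and an adjusted p of 0.540 in the edgeR fit, and between the times by −0.04 (SE 0.09). Without replicate 3, the highest kidney at 28d post-MI, the difference at 28d post-MI was 0.12 (adjusted p = 0.847). With the red blood cell covariate, the difference between 28d and 5d post-MI was 0.15 instead.

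Yap1 (chromosome 9, 7931999 to 8004596, minus strand) had means of 49.0 ± 5.18 CPM in sham kidneys, 48.2 ± 2.53 at 5d and 48.0 ± 3.88 at 28d post-MI (SD, n = 8, 8 and 6). Its log2 differences from sham were −0.02 and −0.03 (SE 0.07 and 0.08), with an adjusted p of 0.964 at 28d post-MI. Wwtr1 (chromosome 3, 57455649 to 57575910, minus strand) had means of 53.7 ± 6.46, 58.3 ± 5.49 and 59.9 ± 5.51 CPM (SD, n = 8, 8 and 6). It ranged from 43.6 to 61.4 CPM in sham kidneys and from 46.3 to 67.5 CPM after MI, and 2 kidneys at each time lay above every sham kidney. Its log2 differences from sham were 0.12 (SE 0.07) and 0.16 (SE 0.08), with an adjusted p of 0.600 at 28d post-MI.

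**Figure D2:**
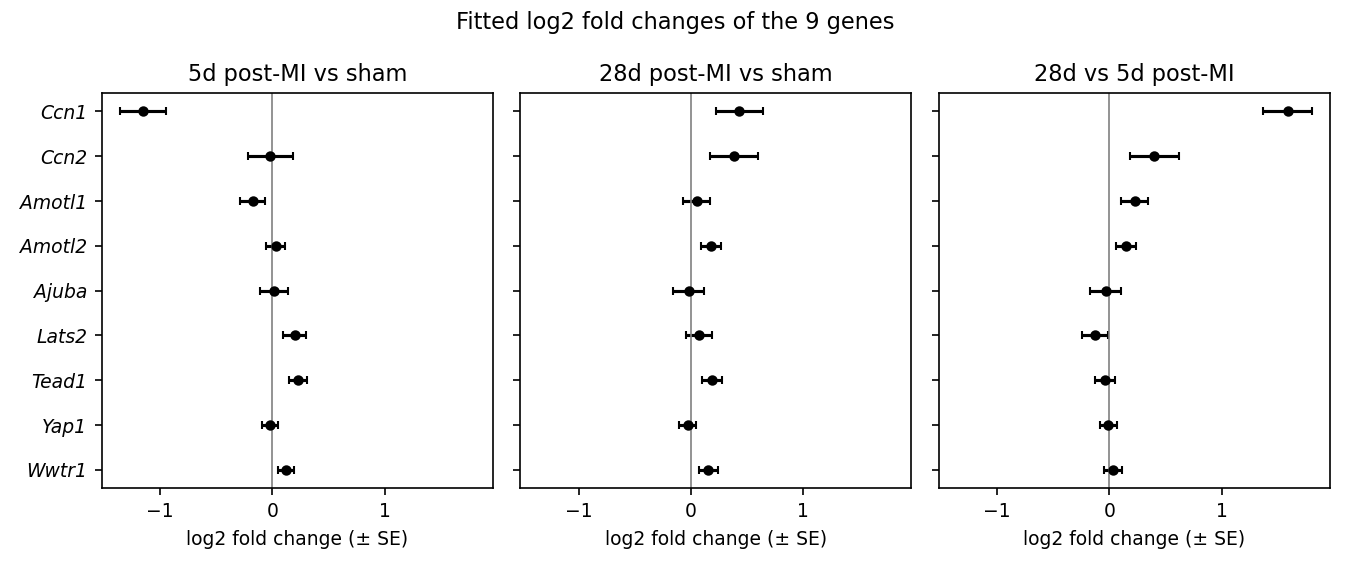
Fitted log2 fold change (x axis) of each of the 9 genes (y axis) in the 3 contrasts, with bars of 1 standard error. Ccn1 stands at −1.16, 0.43 and 1.59, and the other 8 genes lie between −0.17 and 0.40.

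Set beside all genes tested, the counts were as follows. At 5d post-MI against sham 1 of the 9 genes, Ccn1, had an adjusted p under 0.05, beside 0.0704% of all genes, and none of the 9 had groups that did not overlap, beside 0.0548% of all genes. Since Ccn1 was selected on that contrast, nothing is read from this count. It also lay close to the threshold. Ccn1 was called in only 2 of 22 fits that left out 1 kidney each, those without 5d post-MI replicate 1 or 5. Its log2 fold change was between −1.26 and −1.05 in all 22. The call was lost even on leaving out a kidney at 28d post-MI, which is not part of this contrast. DESeq2 and limma's voom called Ccn1. At 28d against 5d post-MI the count was again 1 of 9, Ccn1, beside 0.415% of all genes, and Ccn1 was also the 1 gene without overlap, beside 0.344%. Since both counts rest on the values at 5d post-MI by which Ccn1 was chosen, nothing is read from the second either, and it was 0 with the red blood cell markers as a covariate.

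In the comparison of 28d post-MI with sham none of the 9 genes passed the adjusted threshold with edgeR, beside 0.0235% of all genes, nor with DESeq2 or limma's voom. At an unadjusted p under 0.05 there was 1 of 9, Tead1, beside 8.68% of all genes, which is close to that background. None of the 9 had groups without overlap, beside 0.258% of all genes. The median log2 fold change of the 9 genes was 0.01 at 5d post-MI, 0.16 at 28d post-MI and 0.03 between the times, beside medians of 0.00018, −0.0012 and −0.0046 for all genes tested.

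The rest of the pathway was read through 84 further genes in 8 lists, of which 66 passed the filter on low counts. The lists were chosen with earlier results of these data known, so calls in them are no independent test. With edgeR, none of the 66 genes was called at 5d post-MI, where 14 were lower and 4 higher at an unadjusted p under 0.05, beside 7.90% of all genes in either direction. DESeq2 and limma's voom each called 9 of them at 5d post-MI, all immediate early genes, beside 0.274% (DESeq2) and 0.172% (voom) of all genes. None was called at 28d post-MI against sham by edgeR, DESeq2 or voom (6 higher and 2 lower at an unadjusted p under 0.05, beside 8.68% of all genes in either direction). Between the times edgeR called 10 genes, all higher at 28d, beside 0.336% of all genes called in that direction, and at an unadjusted p under 0.05 there were 15 higher and 1 lower, beside 9.05% of all genes.

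All 10 called genes were immediate early genes, a class of transcription factors and feedback regulators that is induced within minutes and to which Ccn1 itself is often counted. They were Fos, Jun, Junb, Egr1, Ier2, Atf3, Dusp1, Zfp36, Btg2 and Nr4a1. Jun had a median of 96.3 CPM in sham kidneys (44.3 to 131), 40.8 CPM at 5d post-MI (20.4 to 61.7) and 129 CPM at 28d post-MI (85.4 to 191). The kidneys at 5d and 28d post-MI did not overlap for Jun, and those at 5d and in sham did. Its log2 fold change was −1.17 (SE 0.25) at 5d post-MI against sham (adjusted p = 0.1) and 1.69 (SE 0.26) at 28d against 5d post-MI (adjusted p = 0.00342). The median over the 17 tested immediate early genes was −1.15 at 5d post-MI, 0.40 at 28d post-MI and 1.69 between the times. The corresponding values of Ccn1 were −1.16, 0.43 and 1.59. With edgeR on only the 2 groups compared the count of 10 was 3 (Atf3, Ier2 and Jun), and with the red blood cell markers as a covariate it was 0. That covariate nearly separates the 2 times, and no gene at all was called with it, so nothing is read from this 0.

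Outside the immediate early list 49 genes passed the filter, and none of them was called in any of the 3 contrasts by edgeR, DESeq2 or voom. At an unadjusted p under 0.05 they numbered 3 higher and 3 lower at 5d post-MI, 2 lower at 28d post-MI, and 2 higher and 1 lower between the times. All genes tested gave 7.90%, 8.68% and 9.05% in these contrasts, in either direction.

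Of the other YAP and TAZ target genes 15 of 18 were tested, and Ankrd1, Foxf2 and Tgfb2 fell below the filter. Their median log2 fold change was −0.11 at 5d post-MI, 0.05 at 28d post-MI and 0.14 between the times. None passed the test in either direction. Myof, a membrane fusion protein, differed by −0.35 (SE 0.14, unadjusted p = 0.0156) at 28d post-MI against sham, with means of 22.5 ± 4.23 and 17.5 ± 3.86 CPM (SD, n = 8 and 6). Ccdc80, an extracellular matrix protein, differed by −0.41 (SE 0.21) at 5d post-MI and by 0.53 (SE 0.23, unadjusted p = 0.0268) between the times. Nuak2, a kinase of the AMPK family, had 57.6 ± 18.8, 77.1 ± 31.97 and 81.4 ± 20.7 CPM (SD, n = 8, 8 and 6), a log2 difference of 0.50 (SE 0.26) at 28d post-MI against sham.

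No gene of the upstream arm was called. Of the Hippo kinases and adaptors 9 of 10 were tested, and Sav1 fell below the filter with at most 1 count in a kidney. The kinase gene Lats1 differed by 0.24 (SE 0.10, unadjusted p = 0.0166) and Mob1a, a coactivator of LATS kinases, by 0.20 (SE 0.09, unadjusted p = 0.0353) at 5d post-MI against sham, and neither passed the adjusted threshold (adjusted p = 0.516 and 0.59). Of the upstream and junction regulators 8 of 9 were tested, without Fat4, and the angiomotin gene Amot differed by 0.21 (SE 0.10, unadjusted p = 0.0438) between the times. Of the other TEAD and VGLL factors only Tead3 and Vgll4 passed the filter, with log2 differences of 0.07 (SE 0.13) and 0.22 (SE 0.19) at 5d post-MI.

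Of the other CCN genes only Ccn4 was counted often enough to be tested, with 5.79 ± 2.22, 4.83 ± 1.42 and 4.97 ± 1.45 CPM (SD, n = 8, 8 and 6), while Ccn3, Ccn5 and Ccn6 fell below the filter. Of 10 genes for receptors of CCN proteins 7 were tested and none was called. The integrin subunit gene Itgav differed by 0.17 (SE 0.06, unadjusted p = 0.00982) at 5d post-MI against sham and by −0.18 (SE 0.07) between the times. The endocytic receptor gene Lrp1 differed by −0.20 (SE 0.09, unadjusted p = 0.0358) at 5d post-MI.

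Genes of the actin cytoskeleton, the targets of serum response factor, were listed because actin tension acts on YAP. Of 9 genes 7 were tested and their median log2 fold change was −0.14 at 5d post-MI, −0.08 at 28d post-MI and 0.04 between the times. The smooth muscle genes Acta2 and Tagln differed by −0.26 (SE 0.11, unadjusted p = 0.0221) and −0.28 (SE 0.11, unadjusted p = 0.0208) at 5d post-MI against sham, and neither passed the adjusted threshold (adjusted p = 0.549 for both). At 28d post-MI against sham Acta2 differed by −0.32 (SE 0.12, unadjusted p = 0.0112, adjusted p = 0.408) and Tagln by −0.06 (SE 0.12). Acta2 was called in that contrast where no filter on low counts was applied.

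**Figure D3:**
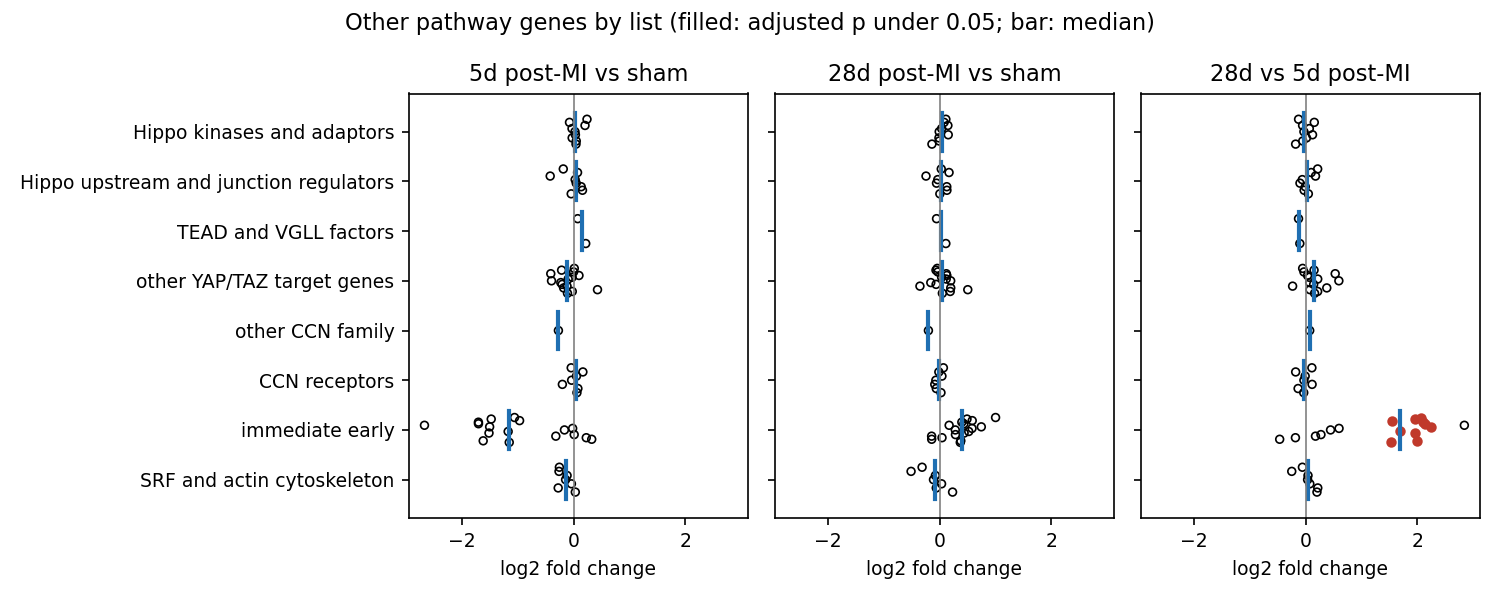
Log2 fold change (x axis) of each tested gene of the 8 other pathway lists (y axis) in the 3 contrasts, with a filled point for an adjusted p under 0.05 and a bar at the list's median. The 10 filled points are immediate early genes at 28d against 5d post-MI, and the medians of the other 7 lists lie between −0.27 and 0.15.

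Kidneys of a group differed more in Ccn1 and Ccn2 than in the other 7 genes. The standard deviation of log2 CPM within groups was 0.43 for Ccn1 and 0.41 for Ccn2, larger than that of 90.4% and 88.1% of all genes tested. It was 0.12 for Yap1, larger than that of 11.5% of genes, and 0.15 to 0.26 for the other 6 genes, while the median of all genes was 0.22.

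The deviations of Ccn1 and Ccn2 gave no clear correlation over all kidneys, but some kidneys were low in both. Sham replicate 2 deviated by −0.63 (Ccn1) and −0.66 (Ccn2), and 5d post-MI replicate 3 by −0.81 and −0.67. With each group's mean removed, the correlation of Ccn1 and Ccn2 over the 22 kidneys was r = 0.12 (permutation test with 100000 resamples, two-sided, p = 0.65, adjusted over 8 relations 0.7) and rho = −0.08 (p = 0.74, adjusted 0.75). Without 5d post-MI replicates 2 and 3, the kidneys farthest from the median of Ccn1, r was −0.13. Within the groups r was 0.34 in sham kidneys, 0.13 at 5d and −0.41 at 28d post-MI. A moderate correlation could be missed with 22 kidneys. Among the 8 relations of Ccn1 with the other genes the lowest adjusted p was 0.2, for Amotl1 (r = −0.41, p = 0.05; rho = −0.41, p = 0.07) and Yap1 (r = −0.38, p = 0.048; rho = −0.44, p = 0.036), both negative. Over all 36 pairs of the 9 genes the median r was 0.06, with 20 positive pairs, and only Ccn2 with Tead1 was above 0.5 (r = 0.52).

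The genes whose deviations were most like those of Ccn1, among 12771 others over 22 kidneys, were Tob1 (r = 0.83, rho = 0.80), Jun (r = 0.82, rho = 0.75), Slc5a8 (r = 0.80, rho = 0.73), Bsdc1 (r = 0.80, rho = 0.74) and Dusp1 (r = 0.79, rho = 0.64). Jun encodes a subunit of AP-1 and Dusp1 a phosphatase of MAP kinases, and both are immediate early genes. Within the groups the r of Ccn1 with Jun was 0.86 in sham kidneys, 0.82 at 5d and 0.88 at 28d post-MI, and over all kidneys but 5d post-MI replicates 2 and 3 it was 0.76. Of the 17 immediate early genes 9 had an r with Ccn1 above 0.5, with a median of 0.60. The share of all genes above 0.5 is not at hand, so nothing is read from this count. The median was 0.05 for the 15 other YAP and TAZ target genes, of which Ccdc80 was above 0.5 (r = 0.61). For the 7 actin cytoskeleton genes it was 0.31, and Tagln, Myl9 and Flna were above 0.5.

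The genes most like Ccn2 were a different set of 5, Tsc22d3 (r = 0.86, rho = 0.84), Adra2b (r = 0.82, rho = 0.81), Prkag3 (r = 0.79, rho = 0.84), Icosl (r = 0.79, rho = 0.77) and Herpud1 (r = 0.79, rho = 0.77). Tsc22d3 encodes the glucocorticoid-induced leucine zipper and Adra2b an adrenergic receptor. The r of Ccn2 with Tsc22d3 was 0.92 in sham kidneys, 0.89 at 5d and 0.98 at 28d post-MI, and 0.82 over all kidneys but 5d post-MI replicates 3 and 9. The median r of Ccn2 was −0.09 with the immediate early genes and 0.04 with the other YAP and TAZ target genes. These correlations describe libraries that share their depth and handling, and each set was picked as the highest of 12771 values.

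**Figure D4:**
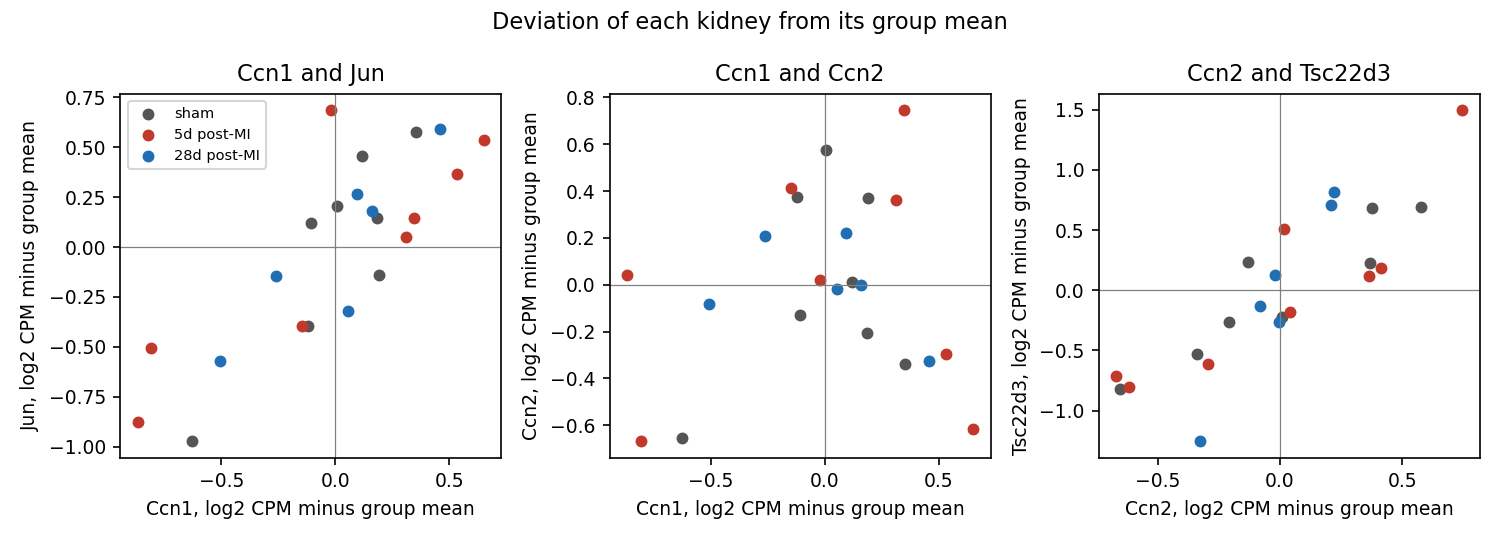
Deviation of each of the 22 kidneys from its group mean, in log2 CPM, for Ccn1 (x) and Jun (y), Ccn1 (x) and Ccn2 (y), and Ccn2 (x) and Tsc22d3 (y), coloured by group. Points follow a rising line for Ccn1 with Jun (r = 0.82) and Ccn2 with Tsc22d3 (r = 0.86) and form no line for Ccn1 with Ccn2 (r = 0.12).

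Markers of other cell types moved with the groups as well. The summed level of 5 red blood cell markers was 2200 to 4124 CPM in sham kidneys, 4968 to 19089 CPM at 5d and 1795 to 5122 CPM at 28d post-MI. Its 4 tested members, all haemoglobin genes, were called higher at 5d post-MI, and Alas2 was at or near 0. With this sum as a covariate Ccn1 differed by −1.03 at 5d post-MI against sham and by 1.43 at 28d against 5d post-MI, with the directions as before and the call lost in both. In that fit 0 of the 12780 genes were called in either contrast. The sum separates the 5d post-MI kidneys from all sham kidneys and nearly from those at 28d post-MI. Covariate and group can thus hardly be told apart, and nothing is read from the lost calls. The 5 markers of mesangium and pericytes summed to 154 to 255, 241 to 476 and 153 to 235 CPM in the same order of groups. Of these, Ren1, the renin gene, had a log2 difference of 0.87 (SE 0.18, adjusted p = 0.1) at 5d post-MI against sham, and the other 4 had negative differences. Ren1 had means of 144 CPM in sham kidneys, 264 CPM at 5d and 119 CPM at 28d post-MI. At 28d against 5d post-MI 1 of the 5 markers was called. The 6 podocyte markers summed to 153 to 190 CPM in sham kidneys (median 171), 176 to 252 CPM at 5d (median 202) and 161 to 223 CPM at 28d post-MI (median 197). The 5 proximal tubule markers summed to 47889 to 58248 CPM in sham kidneys, 32984 to 64576 CPM at 5d and 59868 to 68289 CPM at 28d post-MI. The kidneys at 28d post-MI thus lay above all sham kidneys in the contrast tested for the 9 genes. Most of this sum was Kap, with means of 48618 CPM in sham kidneys and 58960 CPM at 28d post-MI. In the same order Slc34a1 had 4313 and 4357, Lrp2 724 and 796, and Slc22a6 648 and 677 CPM. Slc5a12 was lower at 28d post-MI, with 38.5 and 30.6 CPM. None of the 5 markers was called. The 5 adipocyte markers had medians of 396, 417 and 191 CPM in the same order, with overlapping ranges of 132 to 822, 73.2 to 587 and 141 to 420 CPM. With their sum as a covariate Ccn1 differed from sham by 0.54 at 28d post-MI. Without the 3 kidneys with adrenal cortex markers, Ccn1 differed by −1.29 at 5d post-MI and by 1.67 between the times, and was no longer called in the first contrast. The 7 endothelial and 4 leukocyte markers had median log2 differences of −0.15 and −0.35 at 5d post-MI against sham. In edgeR 2 and 3 of them were lower at an unadjusted p under 0.05, beside 7.90% of all genes in either direction. None of them was called in this contrast. The part of these cells in the levels of the 9 genes was not tested.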

How the data were processed

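The authors trimmed the MACE reads with cutadapt, mapped them and counted them on genes with HTSeq. Their text gives mm10 as the genome and the submitters' processing notes name mm39 and Bowtie2, while the annotation and the strand setting are not given in the sources used here. As deposited by the authors, the table gives raw counts for 56941 genes. It also holds values named tpm, which as deposited are CPM scaled to each kidney's total within 5.0e-06 and not divided by gene length, so that they were not TPM. Of its 48 columns of values 4 were not used, because a name shared by 2 kidneys left them unassigned. No kidney repeated another, with a chi-squared of 1.69 to 7.21 per degree of freedom over the 71 within-group pairs.

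Genes with enough counts (filterByExpr, minimum 10) were fitted with edgeR 4.0.16 in R 4.3.3 by the robust quasi-likelihood model with TMM and the 3 groups, and tested two-sided in 3 contrasts with Benjamini-Hochberg adjustment over 12780 genes. A gene was called at an adjusted p under 0.05. DESeq2 1.42.0 and limma 3.58.1 were alternatives. CPM use the TMM-scaled totals, log2 CPM a prior count of 2, and the standard error (SE) was taken from the fold change and its F value. A count of 0 allows up to 3 counts, for counting error only. The fitting code was tested on simulated data. Symbols matched 51948 identifiers in GENCODE M21, from which the positions come (GRCm38), looked up by identifier.

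The 9 genes and all lists were chosen with earlier results of these data known. Named genes are the 9, each list's called genes or otherwise up to 3 with the lowest p, and the 5 genes most correlated with Ccn1 and with Ccn2. The edgeR p-values weigh a difference between groups against the spread between mice, and those of the correlations come from permutation within groups.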

Additional observations from a re-analysis of the deposited data

Results flagged for a closer look

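Yap1 at 28d post-MI held the only kidney, among 27 groups of values of the 9 genes, that stood apart from its group by Dixon's criterion. Replicate 4 had 40.8 CPM and the next lowest kidney 48.1 CPM, a gap of 0.6255 of the group's range, just past the limit for 6 kidneys. About 1 in 20 such groups is expected to exceed the limit by chance.

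For 10 immediate early genes the change from sham differed between 5d and 28d post-MI in the contrast of the 2 times. Their list was chosen with earlier results of these data known, so these calls are no independent test. The log2 differences were 2.14 for Fos, 1.69 for Jun, 1.95 for Junb, 2.10 for Egr1, 2.25 for Ier2, 2.06 for Atf3, 1.55 for Dusp1, 1.52 for Zfp36, 1.97 for Btg2 and 1.998 for Nr4a1, each higher at 28d post-MI with an adjusted p under 0.05 in edgeR. The red blood cell markers were called in the opposite direction in the same contrast (4 of 4 tested), and their part in these differences was not tested.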

How the results depend on the processing

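Ccn1 kept its direction in all 34 alternative fits of each contrast, with log2 fold changes of −1.29 to −1.03 at 5d post-MI, 0.33 to 0.54 at 28d post-MI and 1.43 to 1.71 between the times. The count of the 9 genes called at 5d post-MI was 1, and 0 with only the 2 groups compared, the replicate block, the red blood cell or adipocyte covariate, or without the 3 kidneys with adrenal cortex markers (chosen after seeing the data), and 0 to 1 leaving out a kidney. Between the times it was 0 with the red blood cell covariate, which largely follows the groups, so that calls lost with it cannot be read. The other pathway genes called at 5d post-MI numbered 0, and 9 with DESeq2, voom or the fit without robust, 3 without the filter, and 0 to 6 leaving out a kidney (6 without 5d post-MI replicate 1). At 28d post-MI there were 2 without the filter (Acta2 and Atf3), and between the times 3 with only the 2 groups compared and 0 with the red blood cell covariate. Small differences at 28d post-MI changed sign, for Lats2 to −0.023 with the adipocyte covariate, for Ajuba (−0.127 to 0.062) and Yap1 (−0.0546 to 0.0164) leaving out a kidney. The correlation of Ccn1 and Ccn2 was then −0.075 to 0.299. The causes were not tested. No correlation of the 18 same-numbered pairs exceeded 0.1 (median 0.02). That gives no sign that the replicate numbers pair the mice, but it cannot exclude it. The replicate block changed no other call of the 9 genes (Ccn1 −1.22 at 5d post-MI). Over all genes tested, 24 were called at 28d post-MI against sham with the block and 3 in the main fit. Ajuba had 29 to 74 counts per kidney and a standard error of 0.14, and differences well above that could also have been missed.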
